A study of Rattus norvegicus with 22 samples.

Results

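The miR-130 and miR-301 microRNAs (miRNAs) are small RNAs of one seed family. A miRNA guides the Argonaute protein to messenger RNAs that pair with its seed, bases 2 to 8 counted from its 5′ end, and so lowers their output. Members of this family are known to act on Pparg, the master gene of fat cell formation. miR-130a is known from blood vessels, where it lowers the homeobox genes Meox2 and Hoxa5, and miR-301a is known to raise NF-κB signalling by lowering its repressor Nkrf.

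The members were selected by number alone: every miR-130 or miR-301 name in the files, whatever its letter or arm. That gave 4 of 468 distinct names, namely rno-miR-130a-3p, rno-miR-130a-5p, rno-miR-130b-3p and rno-miR-301a-3p. The family itself was chosen from read levels in these 22 libraries, so the levels and the differences between groups are given here as a description, with no test of their own.

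Small RNA was sequenced from the hippocampus (the CA1 region, per the labels' protocols) of 14-week-old male Long Evans rats, an outbred laboratory strain. One group was injected subcutaneously for 21 days with 10 mg/kg/day of chlorpyrifos (CPF), an insecticide of the organophosphate class and an inhibitor of acetylcholinesterase. The other was given the peanut oil vehicle over as many days. Each group has 11 libraries, and no label ties a library to a named animal, so the spread given is that between libraries. The labels describe a cohort that underwent fear conditioning and another that did not, without saying which library belongs to which.

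RefSeq mature sequences (build GRCr8) were found for 3 of the 4 names, all but miR-301a-3p. They are shown because the 3p arms of miR-130a and miR-130b carry the family seed and the 5p arm does not. Each is written 5′ to 3′, with bases 2 to 8 in capitals.

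miR-130a-3p: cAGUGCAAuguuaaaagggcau
miR-130b-3p: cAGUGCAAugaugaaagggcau
miR-130a-5p: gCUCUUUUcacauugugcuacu

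miR-130a-3p and miR-130b-3p are both 22 bases long and share 20 of them. They differ by U11A and A13G, with the base of miR-130a-3p first and positions counted from the 5′ end, so the seed is the same and both differences lie behind it. The seed AGUGCAA stands at bases 2 to 8 of 3 of 693 rat mature miRNAs in the RefSeq table (0.433%). Of the names in the files with a sequence, only miR-130a-3p and miR-130b-3p carry it. miR-301a-3p had no sequence to compare, so its seed was not checked here.

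The start of miR-130a-3p also overlaps the seeds of other families. These are shown to make the offset visible, again with bases 2 to 8 in capitals.

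miR-148b-3p: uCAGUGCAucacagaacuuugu
miR-152-3p: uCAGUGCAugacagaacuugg
miR-19b-3p: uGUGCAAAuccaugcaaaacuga

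Bases 1 to 7 of miR-130a-3p, CAGUGCA, are bases 2 to 8 of miR-148b-3p and miR-152-3p. Bases 3 to 8 of miR-130a-3p, GUGCAA, are bases 2 to 7 of miR-19b-3p.

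The Mir130a gene lies at chr3:90229228-90229315 on the minus strand of GRCr8 and encodes a hairpin of 88 bases. In it the capitals mark the 5p arm, at bases 15 to 36, and the 3p arm, at bases 55 to 76.

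Mir130a: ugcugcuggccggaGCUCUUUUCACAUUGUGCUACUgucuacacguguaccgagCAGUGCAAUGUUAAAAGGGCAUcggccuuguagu

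In the RefSeq gene table Mir130a overlaps another miRNA gene, Mir3590, which is on the opposite strand. Mir301a lies within the span of Ska2, which encodes a kinetochore protein, and of Prr11. Mir130b and Mir301b lie within 10 kb of each other. Whether reads were counted by strand is not stated. miR-3590-5p, which is antisense to miR-130a-3p, was listed at 0 in 20 of 22 libraries and at no more than 0.11 RPM (reads per 1000000 miRNA reads) in the other 2.

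Depth limits the rarer members. From the steps between low values a library held 47844 to 94980 miRNA reads, and each read counted for 10.5 to 20.9 RPM. The floor, set at 3 reads, was 31.6 to 62.7 RPM. The libraries carry no molecular identifiers, so intervals and floors cover counting error only. Neuronal miRNAs were present, with a mean for the neuron-specific miR-124-3p of 718 ± 220 RPM in the controls and of 778 ± 178 RPM after CPF (SD, n = 11 each). Other neuronal names did not move together. miR-132-3p averaged 698 ± 159 RPM in controls and 1292 ± 362 RPM after CPF, and miR-128-3p 693 ± 74.8 and 572 ± 171 RPM. miR-128, a separate and more abundant name, was close in both groups, at 7674 ± 1350 and 7558 ± 1630 RPM. The split between it and miR-128-3p is uncertain. The most abundant neuronal name, miR-9a-5p, was close as well, at 52430 ± 7700 and 50850 ± 7160 RPM. Red blood cell miRNAs summed to at most 79.5 RPM in any library.

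The members stood far apart in level. miR-130a-3p ranked 28 of 468 names by its mean over all libraries, at 3299 ± 475 RPM (SD, n = 22), or 238 reads per library. miR-301a-3p ranked 134, at 178 ± 63.7 RPM, or 12.8 reads. These levels did not overlap: the lowest miR-130a-3p value of any library was 2497 RPM and the highest miR-301a-3p value 345 RPM. miR-130a-3p made up 90.6 to 96.9% of the family's RPM in every library. Mature miRNAs are of like length, so reads need no length correction, but ligation favours some sequences over others and its part in these ratios was not tested.

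The other 2 names were at or near 0 and did not pass the filter for testing, 10 RPM in at least 11 libraries. miR-130b-3p had 1 read, in control replicate 10 (13.7 RPM), and 0 in the other 21 libraries. miR-130a-5p, the partner arm of the abundant miR-130a-3p, had 0 reads in all 22 libraries. Against 1595150 reads in all, 0 reads allow up to 1.88 RPM. The 3p arm had 5237 reads, or 1746-fold the floor of 3 reads taken over all libraries together. Levels between miR-130a-5p and miR-130b-3p could not be ordered at this depth.

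miR-130a-3p, the vessel-associated member, was close in both groups. In control libraries it ran from 2497 to 4055 RPM with a median of 3099, and in CPF libraries from 2659 to 4153 RPM with a median of 3438. The groups overlapped over nearly their whole range: 1 of 11 CPF libraries lay above the highest control, and 2 of 11 controls lay below the lowest CPF library. Group means were 3201 ± 509 RPM in control and 3397 ± 441 RPM in CPF (SD, n = 11 each). The log2 fold change of RPM + 1 was 0.09 (SE 0.0873, 95% interval -0.09 to 0.27), a 1.07-fold ratio with an interval of 0.941 to 1.21.

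miR-301a-3p, the rarer member and the one hosted by Ska2, was higher in CPF libraries on average. In control libraries it ran from 82.3 to 192 RPM with a median of 141, or 6 to 14 reads. In CPF libraries it ran from 139 to 345 RPM with a median of 184, or 10 to 26 reads. The groups overlapped: 4 of 11 CPF libraries lay above the highest control, 5 of 11 controls lay below the lowest CPF library, and 10 of 11 CPF libraries lay above the control median. Means were 144.9 ± 30.7 RPM in control and 210.6 ± 72.1 RPM in CPF (SD, n = 11 each).

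**Figure D1:**
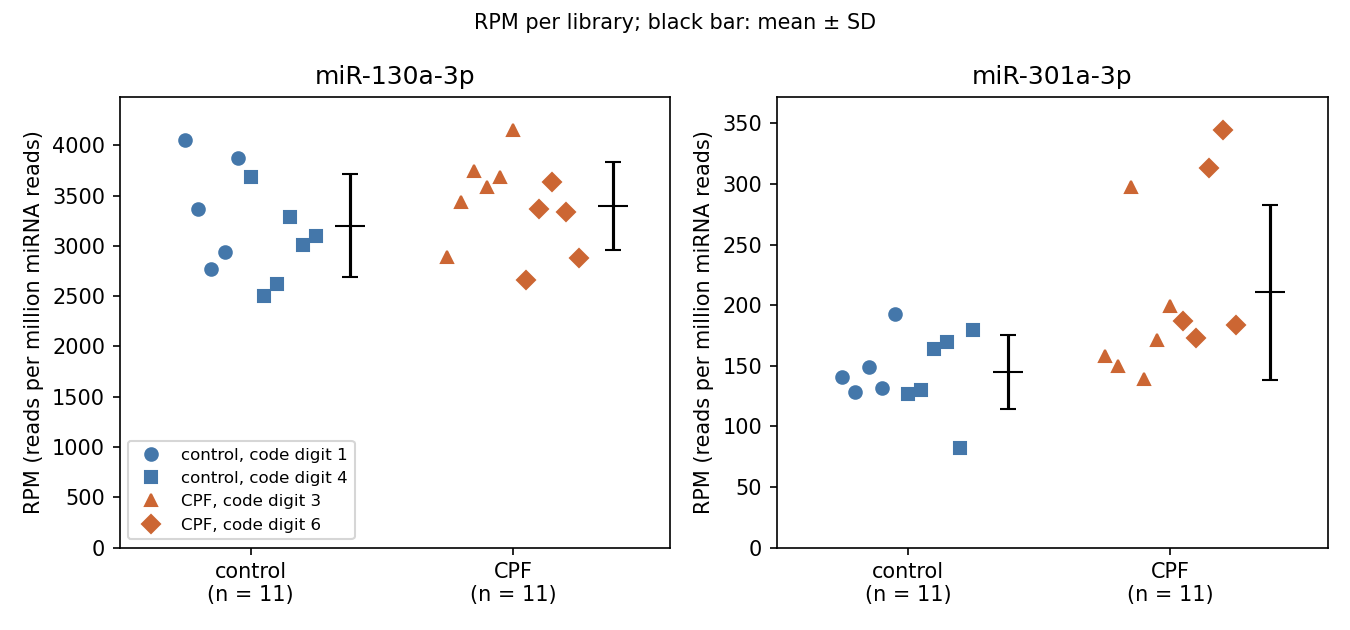
RPM of miR-130a-3p (left) and miR-301a-3p (right) in each of the 11 control and 11 CPF libraries. Symbols show the first digit of the library code, and the black bar is the mean ± SD of the group. miR-130a-3p spans 2497 to 4153 RPM with the groups intermixed, and 3 CPF libraries stand at 297 to 345 RPM of miR-301a-3p.

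The upper part of the CPF range came from 3 libraries. Replicate 10 stood at 345 RPM (26 reads), replicate 9 at 314 RPM (15 reads) and replicate 3 at 297 RPM (22 reads). The other 8 lay between 139 and 199 RPM, a range that also held 6 of the 11 controls. Replicate 9 was the shallowest library, where each read counted for 20.9 RPM. Replicate 11 held 16 reads, at 184 RPM. The ratio of group means was 1.45 and that of group medians 1.31. The log2 fold change of RPM + 1 was 0.50 (SE 0.187, 95% interval 0.12 to 0.88), a 1.42-fold ratio with an interval of 1.09 to 1.85. This value was part of what brought the family forward, so it supports nothing further here.

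Neither member passed the test across all names. With limma, which fits all names together, and Benjamini-Hochberg adjustment at 0.05, 0 of the 2 tested members were called, where 2 of 273 names (0.733%) were called in all. At an unadjusted p under 0.05 stood 18 of the 273 names. No such count is given for the members, since the family was chosen with these levels known. On recovered read counts edgeR called 0 of 2 members tested, against 4 of 140 names in all. DESeq2 called 0 of 3 members tested, against 5 of 418. In the limma fit the median log2 fold change of the 2 members was 0.30, against 0.02 over all 273 names. From 2 members, chosen with these levels known, nothing is read from that gap. Counting only differences above 0, 39 tested names had a higher log2 fold change than miR-301a-3p, and 36 of these had a lower mean RPM.

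**Figure D2:**
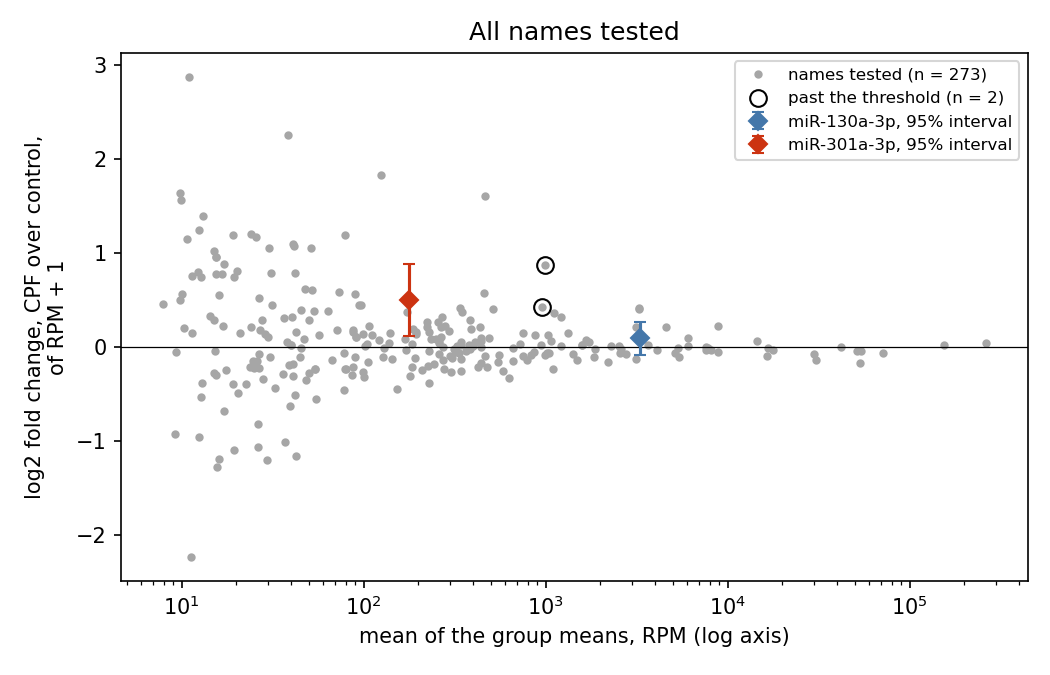
Log2 fold change of RPM + 1, CPF over control, against the mean of the group means in RPM (log axis) for the 273 names tested. Diamonds with 95% intervals are miR-130a-3p at 0.09 and miR-301a-3p at 0.50, and circles mark the 2 names past the threshold. Names of low level scatter widely around 0.

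Counting error covered much of the spread of miR-301a-3p. With 10.3 reads per control library counting alone gives a coefficient of variation of 31.2%, and the controls varied by 21.2%. With 15.3 reads per CPF library counting alone gives 25.6%, and the CPF libraries varied by 34.2%. The 95% Poisson interval of the highest library, CPF replicate 10 with 26 reads, was 17.0 to 38.1 reads, and that of the lowest, control replicate 10 with 6 reads, was 2.2 to 13.1 reads. Summed over libraries, control held 113 reads (144.9 RPM, 119 to 174 by counting error) and CPF held 168 (206 RPM, 176 to 240). These pooled intervals leave out variation between libraries, so they cannot be used to compare the groups. For miR-130a-3p counting alone gives a coefficient of variation of 6.63% in control and 6.34% in CPF, and the libraries gave 15.9% and 13.0%.

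**Figure D3:**
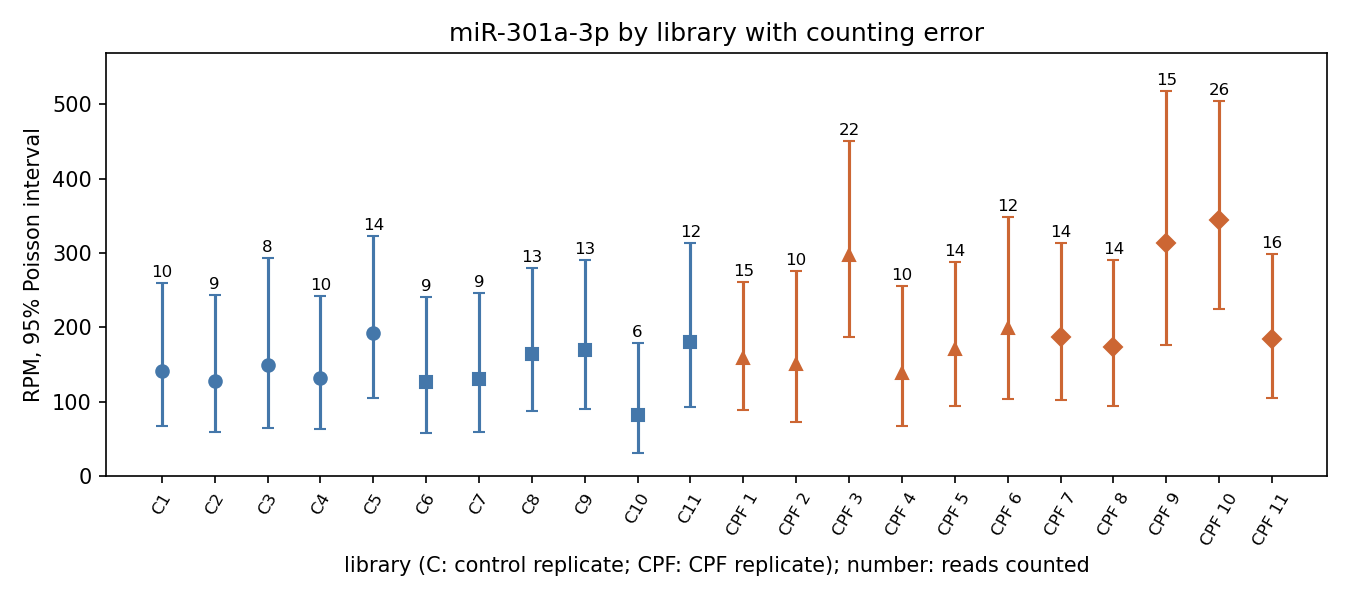
miR-301a-3p in RPM for each library with its exact 95% Poisson interval, which covers counting error only. The number above each bar is the read count, from 6 in control replicate 10 to 26 in CPF replicate 10. The intervals of most libraries overlap.

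The library codes begin with digit 1 (n = 5) or 4 (n = 6) for control and with digit 3 (n = 6) or 6 (n = 5) for CPF. What this digit means is not stated, and none occurs in both groups, so digit and treatment cannot be told apart. In control, miR-301a-3p had a median of 141 RPM at digit 1 (range 128.03 to 192) and of 147 RPM at digit 4 (82.3 to 180). In CPF its median was 165 RPM at digit 3 (139 to 297) and 187 RPM at digit 6 (173 to 345). Its log2 fold change was 0.29 for digit 3 against 1 and 0.74 for digit 6 against 4, a matching of digits that is only one choice. Whether those differ was not tested. miR-130a-3p was at 3403 ± 562 RPM at digit 1, 3033 ± 437 at digit 4, 3581 ± 417 at digit 3 and 3177 ± 396 at digit 6, so in each group the lower digit had the higher mean.

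The ratio of the 2 members was taken in each library. Counting alone gives miR-301a-3p a coefficient of variation of 31.2% in control and 25.6% in CPF. Whether the ratio varied beyond counting error was not tested. For each 100 reads of miR-130a-3p, control libraries held 4.61 ± 1.11 reads of miR-301a-3p and CPF libraries 6.24 ± 2.03 (SD, n = 11 each). Control libraries ran from 2.74 to 6.25 with a median of 4.96, and CPF libraries from 3.88 to 10.3 with a median of 5.47. The same 3 CPF libraries led, with 10.3 in replicate 10, 8.62 in replicate 9 and 7.94 in replicate 3. At digit 6 the ratio averaged 7.5 ± 2.01, and at digits 1, 4 and 3 it averaged 4.42, 4.76 and 5.19. The 2 members did not follow each other closely: their Spearman rho was 0.226 over 22 libraries, 0.1 within control and 0.127 within CPF, with miR-301a-3p resting on few reads.

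**Figure D4:**
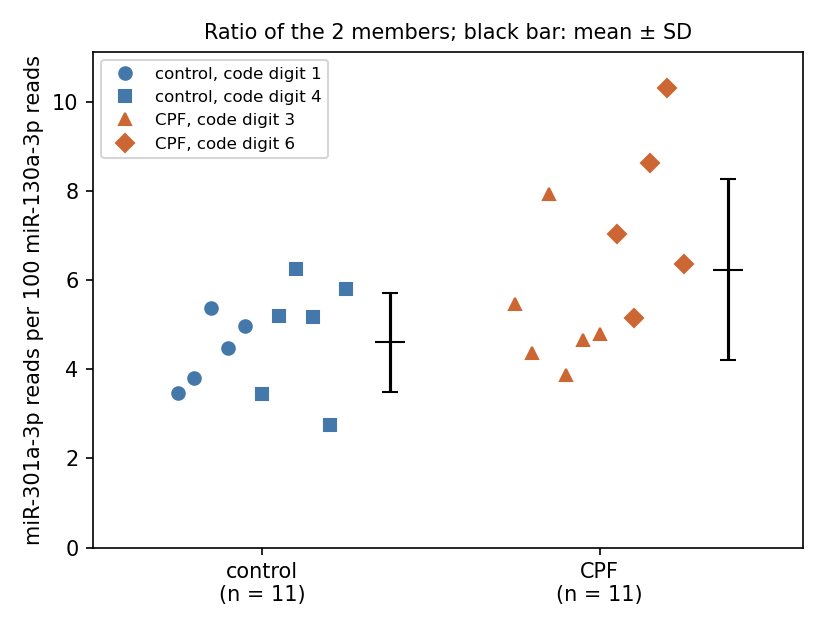
Reads of miR-301a-3p per 100 reads of miR-130a-3p in each library, by group, with the library code digit as symbol and the mean ± SD as a black bar. Control libraries lie between 2.74 and 6.25, and CPF libraries reach 10.3.

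Markers of other cell types were set beside these values. Choroid plexus and ependyma, the linings of the ventricles, border the hippocampus. Their 9 names summed to 580 to 1097 RPM in control libraries and to 635 to 8005 RPM in CPF libraries, and limma called 0 of 7 tested (4 had an unadjusted p under 0.05). Of the names each tool tested, edgeR called 1 of 3 and DESeq2 called 2 of 7. Over all names limma called 2 of 273, with 18 at an unadjusted p under 0.05. For edgeR and DESeq2 the counts over all names were 4 of 140 and 5 of 418. The sums were highest in CPF replicates 7, 8 and 9 (2285, 4973 and 8005 RPM), where miR-301a-3p stood at 187, 173 and 314 RPM. In CPF replicates 10 and 3, also high in miR-301a-3p, the sums were 875 and 635 RPM. Without replicates 7, 8 and 9 the log2 fold change of miR-301a-3p was 0.46 and that of miR-130a-3p 0.12. Vessel wall and endothelial names summed to 222200 to 283800 RPM in control and 221200 to 313400 in CPF, nearly all of it from the smooth muscle miR-143-3p. The endothelial miR-126a-3p, which marks the setting in which miR-130a is best known, averaged 1575 ± 186 RPM in controls and 1600 ± 181 RPM after CPF (SD, n = 11 each). In this list limma called 0 of 4 tested (0 had an unadjusted p under 0.05), edgeR called 0 of 4 and DESeq2 0 of 5. In tissue, fewer cells of a type and less RNA per cell cannot be told apart.

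The families whose seeds overlap that of miR-130a were at low to moderate levels. Of the 3 miR-148 and miR-152 names, only miR-148b-3p passed the filter. It averaged 48.3 ± 32.8 RPM in controls and 48.6 ± 35.8 RPM after CPF (SD, n = 11 each), or 7 reads at most. miR-152-3p had 1 read in each of 2 libraries. Of the 3 miR-19 names, a family of the oncogenic miR-17 cluster, only miR-19b passed the filter, at 261 ± 86.1 and 199 ± 77.9 RPM (log2 fold change -0.38, 95% interval -0.88 to 0.12). miR-19b-3p stands as a separate name with at most 1 read in a library, so the split between the 2 names is uncertain. With limma 0 of the 2 names tested in these families were called in either direction (0 at an unadjusted p under 0.05). edgeR tested 0 of the miR-148 and miR-152 names and 1 miR-19 name, DESeq2 tested 2 and 3, and both called 0. miR-454 and miR-721, which carry the same seed in other species, were not analysed here.

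By Spearman rho over the 22 libraries, among 263 other tested names held by all libraries, the pattern most like that of miR-130a-3p was that of miR-708-3p. This name is the 3p arm of a miRNA hosted by the teneurin gene Tenm4. It ran from 202 to 620 RPM in control libraries (median 444) and from 254 to 731 in CPF libraries (median 460). The Spearman coefficient was 0.858, with 0.918 within control and 0.836 within CPF, and Pearson's r on the log2 scale was 0.874, or 0.842 without the 2 libraries farthest from the median of miR-130a-3p. The next were miR-6215 (rho 0.67, mean 30.3 RPM, under the floor) and miR-3099 (rho 0.669, mean 183 RPM). These are the highest of many values and share each library's total, so no p is given.

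**Figure D5:**
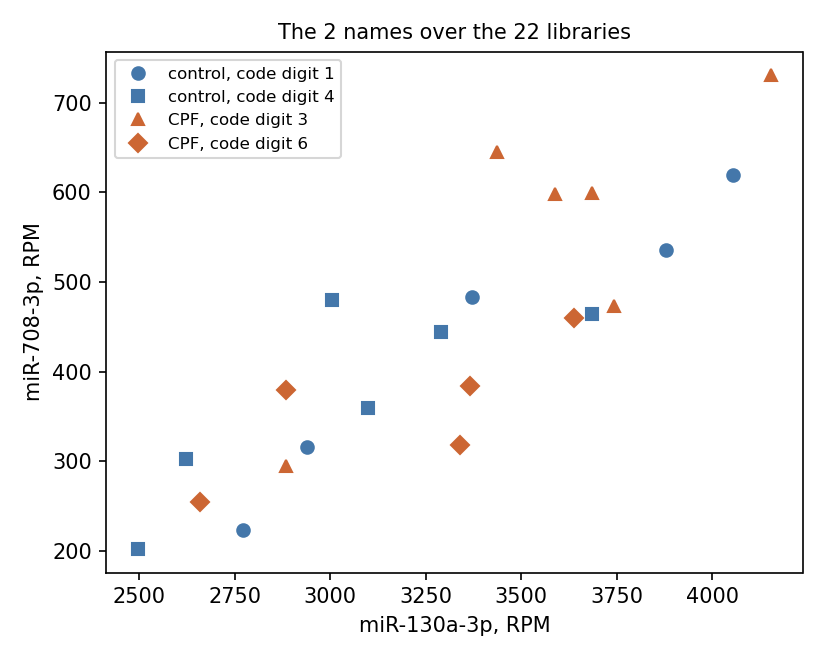
miR-708-3p against miR-130a-3p, both in RPM, with 1 point per library and symbols for group and library code digit. Libraries with more miR-130a-3p held more miR-708-3p in both groups, from 2497 and 202 RPM at the low end to 4153 and 731 RPM at the high end.

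For miR-301a-3p the likeness was weaker and rested on few reads. The activity-induced miR-132-3p came first (rho 0.65), a name that itself differed between the groups. Within control libraries its rho with miR-301a-3p was 0.045 and within CPF libraries 0.764, and whether these differ was not tested. miR-28-3p came next at 0.528 (0.6 within control and 0.536 within CPF). Pearson's r with miR-28-3p was 0.412, and 0.278 without the 2 libraries farthest from the median of miR-301a-3p. miR-3557-5p was the third, at 0.46, but its rho was 0.22 (place 27) with group means removed and 0.344 (place 19) without CPF replicates 7, 8 and 9.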

How the data were processed

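TruSeq small RNA libraries were run on an Illumina HiScanSQ, per the labels' protocols. The deposited files hold, for each miRNA name, reads per 1000000 miRNA reads (RPM) as the authors computed them. Per the submitters' processing notes, the tools were Bowtie, cutadapt 1.2, Partek 6.6 and CASAVA 1.8.2, with build rn4. Their roles, the miRNA annotation, multi-mapping and strand: not given in the sources used here.

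RPM of names on several rows were summed. The file of control replicate 2 holds 448 of 484 rows, and names it lacks were treated as missing. It holds all 4 members. The most common low value was taken as 1 read. Within 0.02 RPM, 90.8 to 97.4% of a library's values were whole reads. Every pair of libraries differed by more than sampling noise (chi-square at least 2.42 per degree of freedom). limma 3.58.1 (R 4.3.3) with a trend was fitted to log2(RPM + 1) of the 273 names that reached 10 RPM in 11 or more libraries, two-sided. Fold changes are on that scale. edgeR 4.0.16 and DESeq2 1.42.0 on rounded recovered reads were alternatives. Correlations used scipy 1.17.1.

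The members, the lists and the alternatives were chosen with earlier results of these data known. The names given are all members, the families with overlapping seeds, miRNA genes within 10 kb, and for each member of at least 100 RPM the 3 names with the highest rho. As neuronal names, miR-124-3p, miR-128-3p, miR-128, miR-132-3p and miR-9a-5p were chosen after their values were seen. The marker lists also covered oligodendrocytes (summed RPM 47330 to 90060 in control, 33450 to 81830 in CPF), neurons (55420 to 79490 and 56940 to 80140) and microglia (55.0 to 142.2 and 49.8 to 107). Of the neuron names tested, limma called 1 of 17, edgeR 1 of 11 and DESeq2 1 of 21. Over all names the 3 tools called 2 of 273, 4 of 140 and 5 of 418.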

Additional observations from a re-analysis of the deposited data

Results flagged for a closer look

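In the control libraries of code digit 4, miR-130b-3p stood at 13.7 RPM in replicate 10 and at 0 in the other 5, so that its gap to the nearest library was the whole range. It is 1 read, under the floor of 3. A gap of this kind follows whenever a name has reads in only 1 library of a group.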

How the results depend on the processing

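miR-130a-3p and miR-301a-3p kept a positive log2 fold change in 35 of 35 settings and were called in 0. These settings refit the same 22 libraries, or parts of them, from which the family was chosen. A constant sign is therefore no further support. Leaving out each library in turn gave 0.06 to 0.13 for miR-130a-3p, 0.42 to 0.55 for miR-301a-3p and 2 to 3 names called. The 12 other alternatives gave 0.07 to 0.12 and 0.29 to 0.74, the extremes for miR-301a-3p being code digit 3 against 1 and 6 against 4, fits on fewer libraries. Each of these called 1 name, edgeR on recovered reads called 4 of 140 and DESeq2 5 of 418, against 2 of 273. With the replicate block 2 names were called. Each replicate number occurs once in each group, so the block leaves the members' log2 fold changes at 0.09 and 0.50 by construction. The numbers share only a label: 2 of 11 same-numbered pairs had a correlation of deviations over 0.1 (range -0.087 to 0.193), and 2 of 22 libraries correlated best with their own number. With group means removed, miR-708-3p stayed the name most like miR-130a-3p (rho 0.843), whereas miR-132-3p moved from the first to place 7 for miR-301a-3p (rho 0.441). Depth limits miR-301a-3p, at 6 to 26 reads, and miR-130b-3p and miR-130a-5p, at or under 1 read.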
